A study of Mus musculus with 9 samples.

Results

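The small heat shock proteins Hspb1, Hspb8 and Cryab and the co-chaperone Bag3 were followed across laser-captured motor neurons and whole spinal cord of the mouse. Every probe set that the array annotation assigns to one of these 4 symbols alone was taken, whatever its signal. That gave 9 of the 45101 probe sets on the array, 2 for Hspb1, 3 for Hspb8, 3 for Cryab and 1 for Bag3, and none was shared with another gene. The 4 genes stand among 18193 symbols that have a probe set of their own.

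The 9 arrays fall into 3 groups of 3. The cord group is total spinal cord of wild type mice, the second group is motor neurons of wild type mice (WT) and the third is motor neurons of SOD1 mutant mice, both captured by laser. SOD1 is the superoxide dismutase whose mutant forms cause a familial type of amyotrophic lateral sclerosis, which destroys motor neurons. The labels name ventral spinal cord as the source of all 9 samples and carry the code D28, which they do not explain. They give no strain, age, disease stage, SOD1 allele or promoter, no account of how motor neurons were recognised, and no word on whether samples share an animal. P-values below therefore measure the spread between these samples, which may be technical.

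Small heat shock proteins are chaperones that hold unfolded proteins in a soluble state and need no ATP to do so. BAG3 ties them to the ATP-driven HSP70 chaperones: it binds HSPB8 through one part of its chain and HSP70 through its BAG domain, and the complex hands misfolded clients to the ubiquitin ligase CHIP and the autophagy receptor p62 for destruction in the lysosome. Mutations of HSPB1 and HSPB8 cause inherited motor neuropathies in people, and mutations of CRYAB and BAG3 cause muscle disease. In the nervous system αB-crystallin, the product of Cryab, is best known from oligodendrocytes and astrocytes.

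Genes of this family are textbook targets of heat shock factor, which binds inverted repeats of the unit GAA. The start regions of the members are shown as sequence only, and any part of them in the signals was not tested. The same 8 bases occur in each window shown. RefSeq windows of the mouse build GRCm38.p6, reaching from 250 bases before to 50 bases after each start, were given for 3 of the 4 members and were searched on both strands for GAANNTTC and TTCNNGAA, the possible junctions of 2 units. Capitals mark the matches to GAANNTTC.
Hspb1, chr5:135887769-135887868, plus strand: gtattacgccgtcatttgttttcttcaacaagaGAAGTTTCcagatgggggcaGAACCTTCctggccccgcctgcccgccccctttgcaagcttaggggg
Hspb8, chr5:116422845-116422914, minus strand: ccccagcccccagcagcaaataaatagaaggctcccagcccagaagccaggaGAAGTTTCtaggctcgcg
Bag3, chr7:128523603-128523632, plus strand: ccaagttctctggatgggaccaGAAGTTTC

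Hspb1 held a match from 117 to 110 bases before its start and another from 97 to 90 bases before it. In Hspb8 the match covered bases 3 to 10 after the start, and in Bag3 it covered bases 43 to 50 after the start. GAANNTTC occurred in 7.86% of all 32851 mouse windows of 300 bases and TTCNNGAA in 8.52%, with at least one of them in 15.1%. The exact run GAAGTTTC, noticed only after the windows were read, occurred in 1.21%. These matches are letters in a window, and no binding was measured.

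The captured samples carried the labelled cell type, with other cells' transcripts still present. Of 9 motor neuron markers 8 rose in WT motor neurons against cord. By 1 probe set per gene, 31.1% of all 12983 tested genes rose and 36.1% fell. The exception was Chat, at 0.61 (limma adjusted p = 0.0816), which was called after quantile normalization (1.44) and median centring (1.52). Chat read 397 to 441 in cord, 496 to 830 in WT and 354 to 1070 in SOD1 motor neurons. The summed signal of the 9 markers was 19647 to 29484 in cord, 299213 to 312515 in WT motor neurons and 274226 to 287481 in SOD1 motor neurons. All 6 measured oligodendrocyte markers fell (3 fell and 1 rose after median centring), yet their summed signal was still 249785 to 261815 in WT and 291379 to 318577 in SOD1 motor neurons, against 501283 to 593392 in cord. Among astrocyte markers 5 of 6 fell (6 after quantile normalization, and 5 with 1 higher after median centring), and the summed signal of the list was 195260.0 to 209013 in cord, 83423 to 88982 in WT and 108855 to 123700 in SOD1 motor neurons. All 5 measured markers of other neurons fell (3 after median centring). Their summed signal was 85503 to 96872 in cord, 19921 to 22889 in WT and 18152 to 32454 in SOD1 motor neurons. Muscle is another tissue rich in these chaperones. Of its 7 markers, Myh11, Tagln, Cnn1 and Acta1 were above background on no WT motor neuron array, Ckm was on 1, and Acta2 (342 to 689) and Des (163 to 440.4) were on all 3. Acta2 was 2499 to 4053 in cord and reached 2435 on a SOD1 array, and Des was 49.8 to 462.5 in cord. The captured samples also differed from cord in RNA: the log2 signal of the 3′ minus the 5′ control probe set of Gapdh was -0.29 to -0.26 on cord arrays, 3.65 to 4.52 on WT and 4.33 to 4.63 on SOD1 motor neuron arrays. The same difference for Actb was 0.64 to 0.69 on cord, 4.17 to 4.97 on WT and 4.66 to 5.84 on SOD1 motor neuron arrays. Background was 135 to 173 on cord, 131 to 147 on WT and 157 to 244 on SOD1 motor neuron arrays. Cord arrays had median signals of 556 to 583, WT motor neuron arrays 269 to 313 and SOD1 motor neuron arrays 274 to 366. Because of that gap, changes were also computed after quantile normalization and after centring each array on its median.

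In WT motor neurons Hspb1, Hspb8 and Bag3 were read far above cord by their brightest probe sets, from 4.49-fold for Hspb1 to 10.7-fold for Bag3. Cryab was not: 1 of its bright probe sets was level and the other was 5.98-fold lower than in cord. Of the 8 member probe sets bright enough to be tested, 4 rose and 2 fell (limma, Benjamini-Hochberg adjusted p under 0.05), where 24.0% of all 27022 tested probe sets rose and 41.5% fell. The array as a whole was thus far from still, with 65.5% of probe sets called and a median log2 change of -0.35. Quantile normalization put that median at 0.13 and median centring at 0.56, and the share of called probe sets that were higher went from 36.7% to 55.6% and 71.1%. In such bulk extracts a larger share of a cell type and more RNA per cell cannot be told apart.

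**Figure D1:**
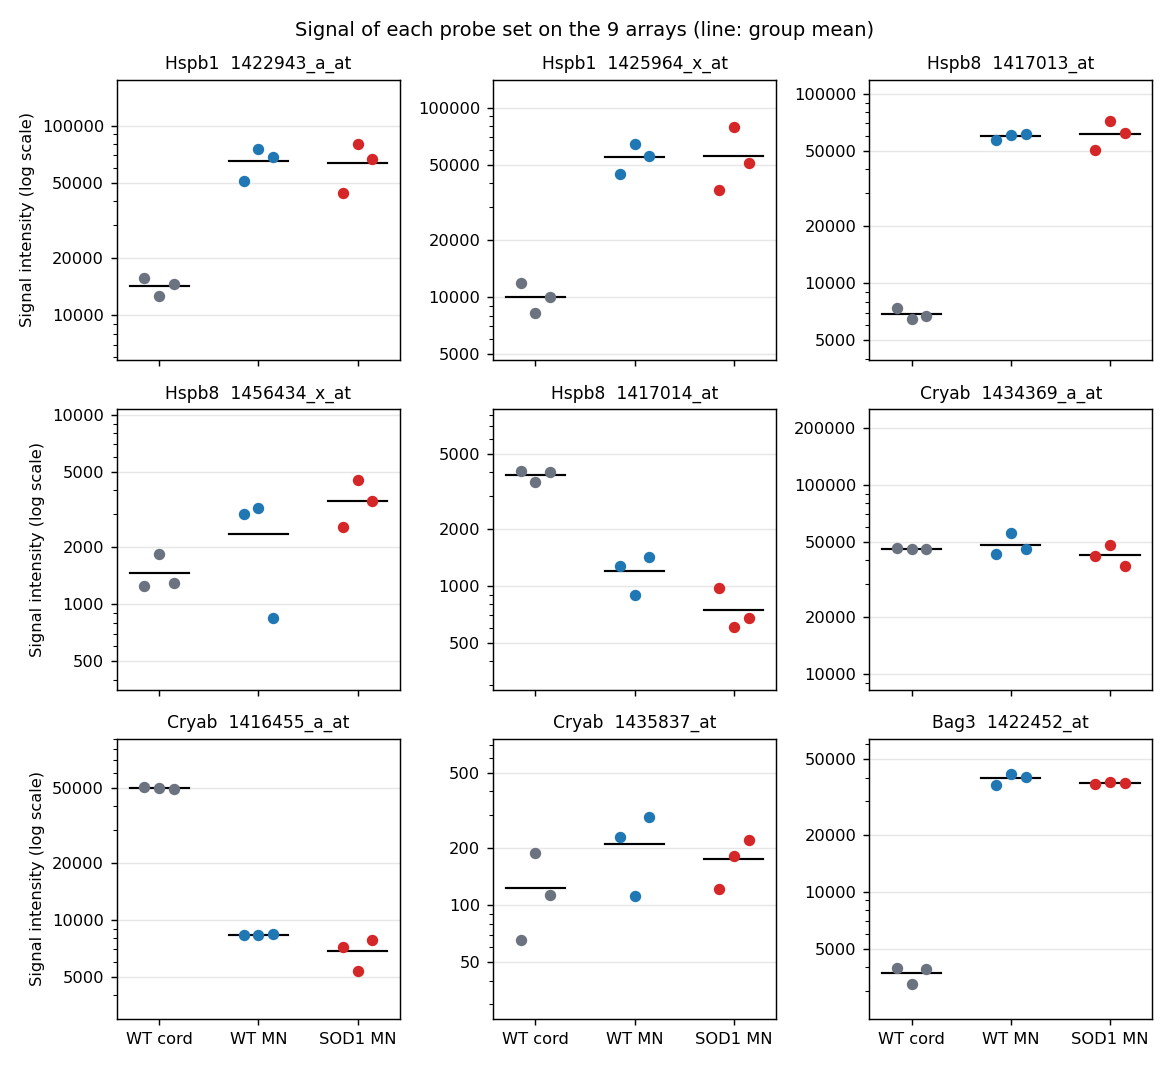
Signal of each member probe set on each of the 9 arrays (log scale, arbitrary signal units), with 1 point per array and the 3 groups side by side; the horizontal marks are group means. Hspb1, the brightest Hspb8 probe set and Bag3 lie higher in both motor neuron groups than in cord, while probe sets of Hspb8 and Cryab do not all move together (MN, motor neurons).

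Hspb1, the chaperone also known as HSP27, was read by 2 probe sets that gave nearly the same change. Probe set 1422943_a_at gave signals of 15791, 12631 and 14539.5 in cord, 51025, 75182 and 68658 in WT motor neurons, and 44372, 80261 and 66986 in SOD1 motor neurons. Every captured sample was above every cord sample, and the WT and SOD1 ranges overlapped. The change from cord to WT motor neurons was 2.17 ± 0.15 (log2 of the signal plus 20.3, SE, n = 3 and 3, limma adjusted p = 3.46e-06). Probe set 1425964_x_at, some of whose probes can match other sequences, gave 11908, 8229 and 10042 in cord, 44849, 64525 and 55969 in WT, and 36608, 79511 and 51368 in SOD1 motor neurons. Its change of 2.45 ± 0.16 (limma adjusted p = 3.07e-06) lay 0.29 from that of its partner, and 90.4% of the 6010 genes with at least 2 tested probe sets differed by as much or more.

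Hspb8, the small heat shock protein that binds BAG3, gave 3 readings. Its brightest probe set, 1417013_at, read 7450.2, 6466 and 6760.3 in cord, 57013, 60703 and 61362 in WT motor neurons, and 50868, 72398 and 62333 in SOD1 motor neurons. The captured samples were all far above cord, by 3.11 ± 0.08 in WT (8.65-fold on that scale, limma adjusted p = 8.81e-08). Probe set 1417014_at went the other way. It read 4024, 3536 and 3973 in cord, 1279.7, 898 and 1422 in WT, and 972, 605 and 674 in SOD1 motor neurons, so that every captured sample was below every cord sample. Its change was -1.69 ± 0.19 in WT motor neurons, 3.22-fold lower (limma adjusted p = 6.36e-05). Probe set 1456434_x_at was uneven, with 1256, 1852 and 1298 in cord, 2998, 3242 and 844 in WT, and 2573, 4515 and 3503 in SOD1 motor neurons. One WT array, replicate 3, fell below all cord arrays. Its change of 0.48 ± 0.46 was not called (limma adjusted p = 0.387), and was called without WT motor neuron replicate 3 (1.10, adjusted p = 0.00409), after quantile normalization (1.18, adjusted p = 0.0395) and after median centring (1.39, adjusted p = 0.0295).

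Probe sets of Hspb8 are compared here as log2 differences within each array, where a scale factor for the whole array cancels. Probe set 1417013_at exceeded 1417014_at by 0.89, 0.87 and 0.76 in cord, by 5.46, 6.05 and 5.41 in WT motor neurons and by 5.68, 6.86 and 6.49 in SOD1 motor neurons. The gap widened by 4.80 from cord to WT motor neurons (exact permutation test, two-sided, p = 0.1, the smallest that 3 against 3 allows; Benjamini-Hochberg p = 0.125 over the pairs of probe sets of one gene). Of the 6010 genes 2.53% showed a range between their tested probe sets as wide as this or wider, against a median of 1.36. Such shares, here and for Hspb1 and Cryab, were not matched for the number of probe sets per gene. Opposite calls were less rare: of the 3722 genes with at least 2 called probe sets, 34.7% had calls both ways, as Hspb8 did. Probe set 1417013_at minus 1456434_x_at shifted by 2.63 (exact permutation p = 0.1, Benjamini-Hochberg p = 0.125). On the same arrays the 3′ minus 5′ difference of Gapdh moved from below 0 to at least 3.65, as given above, and its part in the result was not tested. Positions of the probe sets along the transcript were not used here.

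Cryab, the gene of αB-crystallin, split in a similar way. Probe set 1434369_a_at read 46704, 45761 and 45878 in cord, 43208, 56066 and 46029 in WT motor neurons, and 42028, 48327 and 37254 in SOD1 motor neurons. The 3 groups overlapped, and the change from cord to WT motor neurons was 0.06 ± 0.10 (95% interval -0.16 to 0.29, limma adjusted p = 0.6). That value depended on the scale: it was -0.47 after quantile normalization (adjusted p = 0.0016), 0.97 after median centring (adjusted p = 1.53e-05) and -0.05 without WT motor neuron replicate 2. Probe set 1416455_a_at read 50744, 50122.5 and 49290.3 in cord, 8372, 8295 and 8394 in WT, and 7225, 5391 and 7867 in SOD1 motor neurons. Cord stood clear of both captured groups, and the change in WT motor neurons was -2.58 ± 0.07 (limma adjusted p = 8.81e-08), -3.01 after quantile normalization and -1.67 after median centring. The oligodendrocyte and astrocyte marker lists fell in the same samples, with median log2 changes of -1.74 and -3.06. Their part in the result was not tested.

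The third Cryab probe set, 1435837_at, was too dim to test. It ranged from 65.7 to 189.4 in cord, from 112 to 292 in WT and from 123 to 221 in SOD1 motor neurons, and stood above background on 1, 2 and 1 arrays of the 3 groups. Within an array, 1434369_a_at minus 1416455_a_at was -0.12, -0.13 and -0.10 in cord, 2.36, 2.75 and 2.45 in WT, and 2.54, 3.16 and 2.24 in SOD1 motor neurons. The bright probe sets of Cryab thus read alike in cord and apart by over 2 log2 units in captured cells (shift of 2.64 in WT, exact permutation p = 0.1, Benjamini-Hochberg p = 0.125). A range this wide or wider was found for 18.8% of genes.

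**Figure D2:**
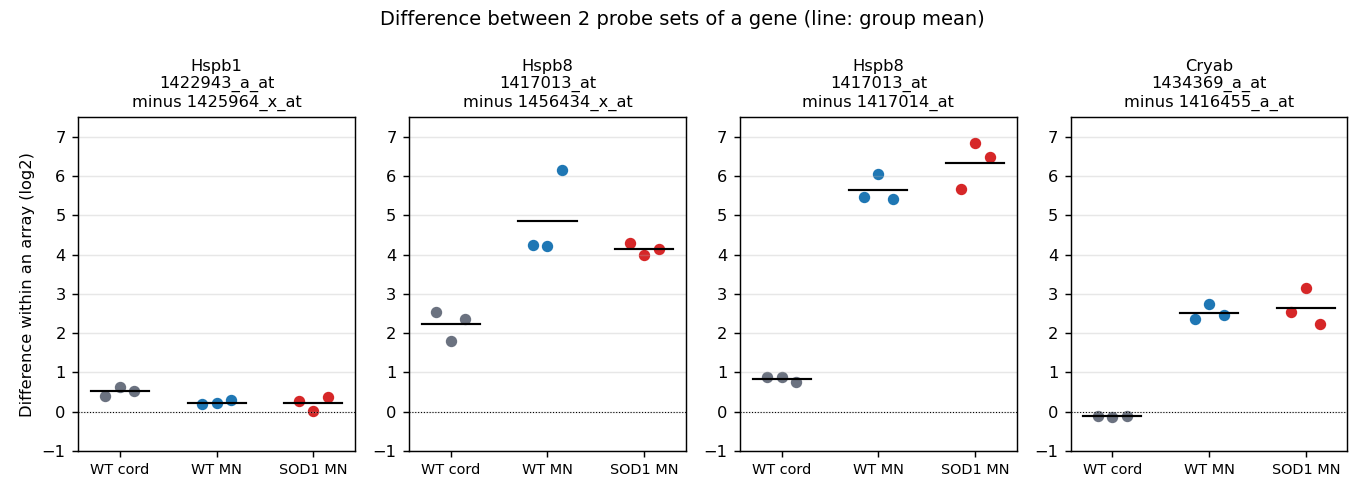
Log2 difference between probe sets of the same gene on each of the 9 arrays, with 1 point per array and colours for the 3 groups. The Hspb1 pair stays close in all groups, the Cryab pair moves from about -0.12 in cord to at least 2.24 in motor neurons, and the Hspb8 pair 1417013_at and 1417014_at moves from at most 0.89 to at least 5.41.

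Bag3, the co-chaperone that joins HSPB8 to HSP70, had the widest change of the members by brightest probe set. Its single probe set, 1422452_at, read 3935, 3271 and 3914 in cord, 36742, 41895 and 40554 in WT motor neurons, and 37066, 38055 and 37707 in SOD1 motor neurons. The captured samples lay within a narrow band far above cord. The change in WT motor neurons was 3.42 ± 0.10 (limma adjusted p = 1.39e-07), 3.55 after quantile normalization and 4.33 after median centring. With 1 probe set there is no second reading of Bag3.

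**Figure D3:**
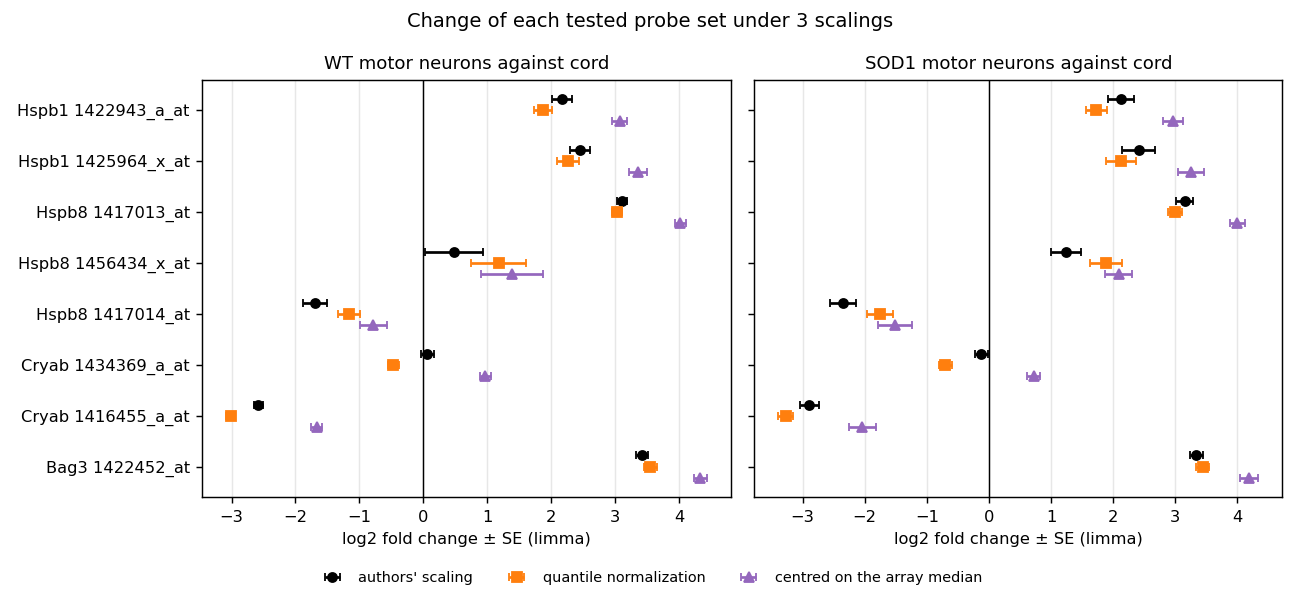
Log2 change of each tested member probe set from cord to WT (left) and SOD1 (right) motor neurons under the deposited scale, quantile normalization and median centring; points are estimates and bars are standard errors. Hspb1, Hspb8 1417013_at and Bag3 stay above 0 under all 3 scales, Hspb8 1417014_at and Cryab 1416455_a_at stay below 0, and Cryab 1434369_a_at changes sign.

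The members were also set against each other within arrays, by the brightest probe set of each. Brightest means the highest mean over the 3 groups, captured cells included. In cord alone Cryab 1416455_a_at was brighter than 1434369_a_at, with means of 50052 and 46114. Hspb1 minus Hspb8 fell by 0.95 from cord to WT motor neurons, and Hspb1 minus Bag3 by 1.25, so Hspb1 rose less than either on the same arrays. Hspb8 minus Bag3 changed by -0.31, the smallest shift among the 6 pairs. Cryab fell behind all the others: Hspb1 minus Cryab shifted by 2.10, Hspb8 minus Cryab by 3.05 and Cryab minus Bag3 by -3.36. No pair overlapped between cord and WT motor neurons, and each of the 6 gave an exact permutation p of 0.1 (two-sided, Benjamini-Hochberg p = 0.1), the floor for 3 against 3. The 6 pairs are made from 4 genes and are not independent. With 65.5% of probe sets called between these groups, other gene pairs may part as well, and their share was not computed. With Cryab read by 1416455_a_at, a choice added after the values were seen, the shifts against Hspb1 and Hspb8 were 4.75 and 5.69.

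SOD1 mutant motor neurons were compared with WT motor neurons to ask whether these chaperones differed with the mutation. No member probe set was called (limma, 0 of 8, 1 of 8 at an unadjusted p under 0.05), where 0.222% of all 27022 were, 0.152% higher and 0.0703% lower. At an unadjusted p under 0.05 there were 4117 of the 27022. The 60 probe sets called on the array became 11, 13 and 6 without WT motor neuron replicate 1, 2 or 3, and 7 without SOD1 motor neuron replicate 3. For Bag3 the log2 difference was -0.08, with a 95% interval of -0.33 to 0.18. Hspb8 by 1417013_at differed by 0.04 (-0.27 to 0.35) and Hspb1 by 1422943_a_at by -0.05 (-0.52 to 0.42). As ratios of SOD1 to WT, these intervals run from 0.795 to 1.13 for Bag3, from 0.829 to 1.27 for Hspb8 and from 0.698 to 1.34 for Hspb1. Hspb1 1425964_x_at differed by -0.04, with a ratio between 0.67 and 1.41.

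The remaining probe sets of Hspb8 and Cryab were not called either. Hspb8 1417014_at differed by -0.67 (-1.32 to -0.01, unadjusted p = 0.0467, limma adjusted p = 0.321), and SOD1 replicate 1, at 972, lay within the WT range. Hspb8 1456434_x_at differed by 0.76 (-0.22 to 1.74, adjusted p = 0.444). Cryab 1416455_a_at was lower on all 3 SOD1 arrays than on any WT array, at 5391 to 7867 against 8295 to 8394. That difference of -0.31 (-0.69 to 0.07) was not called (limma adjusted p = 0.422). Cryab 1434369_a_at differed by -0.19 (-0.51 to 0.13), with overlapping arrays. The 3′ minus 5′ difference of Actb was 4.66 to 5.84 on SOD1 and 4.17 to 4.97 on WT motor neuron arrays. Its part in these differences was not tested. All 6 within-array differences between members overlapped between SOD1 and WT motor neurons (exact permutation p from 0.3 to 0.9).

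SOD1 motor neurons were then set against the same 3 cord arrays, so this comparison shares its controls with the first. Of the 8 tested member probe sets 5 rose and 2 fell, where 62.1% of all tested probe sets were called, 21.9% higher and 40.2% lower. Bag3 stood 3.34 ± 0.11 above cord in SOD1 and 3.42 ± 0.10 in WT motor neurons. Hspb8 1417013_at stood 3.15 ± 0.14 above cord in SOD1 and 3.11 ± 0.08 in WT motor neurons, and Hspb1 1422943_a_at 2.12 ± 0.21 and 2.17 ± 0.15. The uneven Hspb8 1456434_x_at was called here, at 1.24 ± 0.24 (limma adjusted p = 0.00227). The probe sets that were lower than cord were Hspb8 1417014_at, at -2.35 ± 0.21, and Cryab 1416455_a_at, at -2.89 ± 0.15. Cryab 1434369_a_at differed by -0.12 ± 0.11 (limma adjusted p = 0.367), by -0.70 after quantile normalization (adjusted p = 0.000499) and by 0.72 after median centring (adjusted p = 0.000699).

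**Figure D4:**
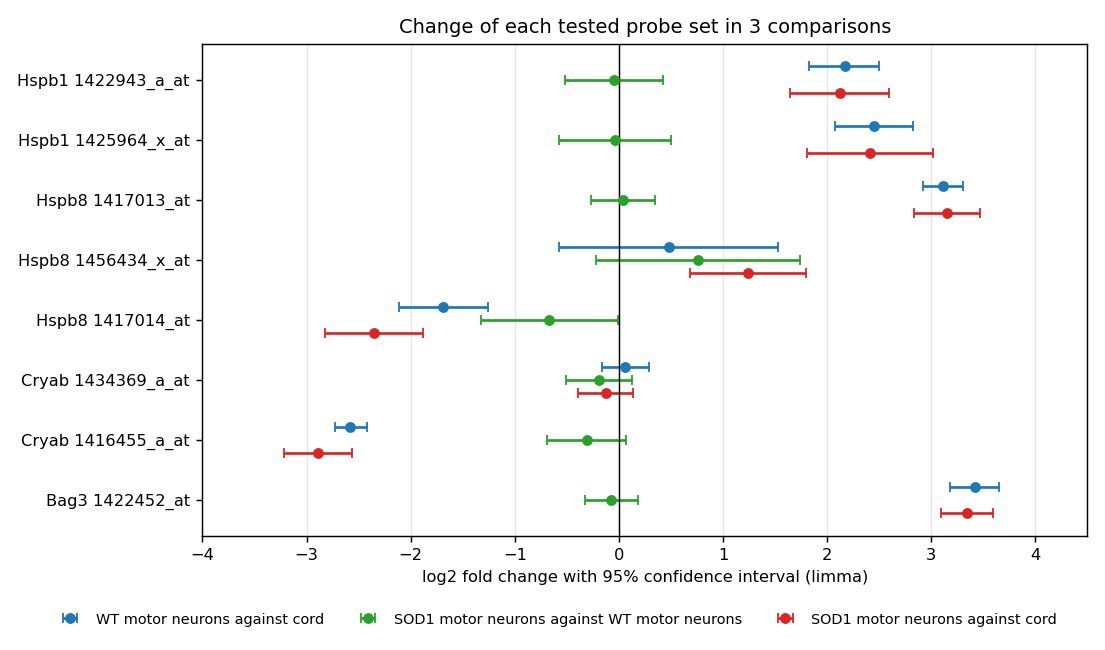
Log2 change of each tested member probe set in the 3 comparisons, with points for the estimates and bars for 95% intervals. WT and SOD1 motor neurons show like changes against the shared cord arrays, and all intervals between SOD1 and WT motor neurons include 0 except that of Hspb8 1417014_at, which ends at -0.01.

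The other small heat shock proteins gave a thinner picture. Of 7 measured, 4 (Hspb3, Hspb9, the lens crystallin Cryaa and the sperm tail protein Odf1) were too dim to test. In WT motor neurons Hspb6 rose by 0.47 ± 0.12 on the log2 scale (limma adjusted p = 0.00893), far less than Hspb1 or Hspb8. Hspb2, which lies next to Cryab on chromosome 9, fell by 2.06 (adjusted p = 0.00107). Hspb7 differed by 0.11 ± 0.44. In SOD1 motor neurons against cord, Hspb6 rose by 0.89, and Hspb2 fell by 1.58, a call that ended after quantile normalization (-0.68, adjusted p = 0.0742) and after median centring (-0.73, adjusted p = 0.0507). Between SOD1 and WT motor neurons none of the 3 was called, where 0.254% of all genes were. Hspb6 was higher on every SOD1 array (5589 to 6432) than on any WT array (3936 to 4880). Its difference was 0.42 (limma adjusted p = 0.272), with Hspb2 at 0.48 and Hspb7 at -0.21, both with overlapping arrays.

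Among the other 5 BAG domain proteins, which share with BAG3 the domain that binds HSP70, none moved as far as Bag3. In WT motor neurons Bag4 rose by 0.89 ± 0.12 and Bag1 by 0.69 ± 0.13, and Bag6 fell by 0.99. Bag5 differed by 0.40 (limma adjusted p = 0.0689), and was called after quantile normalization (0.53, adjusted p = 0.0171), after median centring (1.31, adjusted p = 0.000507) and without WT motor neuron replicate 2 (0.61, adjusted p = 0.000752). Bag2 differed by -0.46 (adjusted p = 0.0722), and was at 0.21 after quantile normalization and 0.44 after median centring. The fall of Bag6 was not called after median centring (-0.08, adjusted p = 0.682). By 1 probe set per gene, 67.3% of the 12983 tested genes were called in this comparison, 31.1% higher and 36.1% lower. In SOD1 motor neurons against cord Bag4 rose by 0.82, Bag1 by 0.51 and Bag6 fell by 1.36; Bag1 was not called after quantile normalization (0.20, adjusted p = 0.236) or without cord replicate 2 (0.46, adjusted p = 0.056).

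The partners of BAG3 in chaperone-assisted selective autophagy, the route by which it sends clients to the lysosome, were higher in WT motor neurons in 11 of 16 cases and lower in 3. Of all 12983 tested genes 31.1% were higher and 36.1% lower. The median log2 change of the 16 was 0.71, against -0.10 over all genes. After quantile normalization 9 were higher and 1 lower, where 5476 and 3393 of the 12983 genes were, with a median of 0.51 against 0.26. After median centring 13 were higher and none lower, where 7510 and 1989 genes were, with a median of 1.62 against 0.81. Hspa4, an HSP70 relative that exchanges its nucleotide, rose by 1.68 ± 0.17 and Map1lc3a, which coats the autophagosome, by 1.47 ± 0.07. Flnc, filamin C, a muscle client of BAG3, fell by 1.59, which was not called after quantile normalization (-0.73, adjusted p = 0.0636) or median centring (-0.69, adjusted p = 0.0729). In SOD1 motor neurons against cord 9 of the 16 rose and 4 fell, where 63.7% of genes were called, 28.4% higher and 35.3% lower; the largest were the HSP70 genes Hspa1a at 2.14 ± 0.17 and Hspa1b at 2.10 ± 0.18.

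Of 17 measured heat shock response genes, 13 rose and 2 fell in WT motor neurons, where 31.1% of all genes rose and 36.1% fell. Hspa8, Hspa1a and Hspa1b rose and are also in the autophagy list, so the counts of these lists are not independent. The median of the 17 was 1.06, against -0.10 over all genes. After quantile normalization 11 were higher and 3 lower, where 5476 and 3393 of the 12983 genes were, with a median of 0.69 against 0.26. After median centring 14 were higher and 1 lower, where 7510 and 1989 genes were, with a median of 1.97 against 0.81. The largest changes were in Chordc1, a partner of HSP90, up by 2.16 ± 0.07, in Dnajb1, an HSP40 that works with HSP70, up by 1.65 ± 0.09, and in Serpinh1, the collagen chaperone, which fell by 2.99. The rises of Chordc1 and Dnajb1 were smaller than that of Bag3. Collagen and other markers of meninges and vessels fell in the same samples, in 6 of 6 tested cases, with a median of -4.70, and their part in the fall of Serpinh1 was not tested. In SOD1 motor neurons against cord 13 rose and 3 fell, where 28.4% and 35.3% of all genes did, among them Chordc1 at 2.47 ± 0.09 and Serpinh1 at -3.12 ± 0.25. Hsf1, the main heat shock factor, and Hsp90ab1 had no probe set of their own in the annotation.

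A single gene of these lists was called between SOD1 and WT motor neurons, where 0.254% of all genes were (0.169% higher, 0.0847% lower): Hspa1b, the stress-induced HSP70. Hspa1b was read by the brightest of its 3 probe sets, and the others are not described here. Its signal was 1799 to 2487 in cord, 3503 to 4161 in WT and 7563.5 to 10398.5 in SOD1 motor neurons, with no overlap. The log2 difference was 1.26 ± 0.18 (limma adjusted p = 0.0317). It lay between 1.17 and 1.40 under all 15 alternatives, with adjusted p from 0.00502 to 0.181, and was called after quantile normalization (adjusted p = 0.0366). It was not called after median centring (adjusted p = 0.116), without the intensity trend (0.166), or without WT motor neuron replicate 1, 2 or 3 or SOD1 motor neuron replicate 1 or 3 (adjusted p from 0.0502 to 0.181). Its near-identical neighbour Hspa1a, whose transcripts the probes may not tell apart, differed by 0.69 ± 0.24 (adjusted p = 0.213). Vps11, part of a complex for vesicle fusion with lysosomes, differed by -0.80 (adjusted p = 0.112) and Stip1, which links HSP70 to HSP90, by -0.45 (adjusted p = 0.276). Among list markers of other cells, the astrocyte gene Gja1 was also called between these groups (1.25 ± 0.15, limma adjusted p = 0.017). Aqp4, another astrocyte gene, differed by 1.2 (adjusted p = 0.0884) and the microglial gene C1qa by 2.82 (adjusted p = 0.14), with every SOD1 array above every WT array. C1qa was near the floor in WT motor neurons, at 19.4 to 275.3 and above background on 1 array. Over the 5 microglial markers the median was 0.26, and none was called. The median was 1.0 over the 6 astrocyte markers and 0.16 over the oligodendrocyte markers. It was 0.8 over the tested markers of meninges and vessels, 0.74 over other neurons and 0.71 over muscle, with none called. Col1a1, Col1a2 and Col3a1 were higher on every SOD1 array than on any WT array, while Dcn, Lum and Cldn5 overlapped. The part of these other cells in the difference of Hspa1b was not tested.

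**Figure D5:**
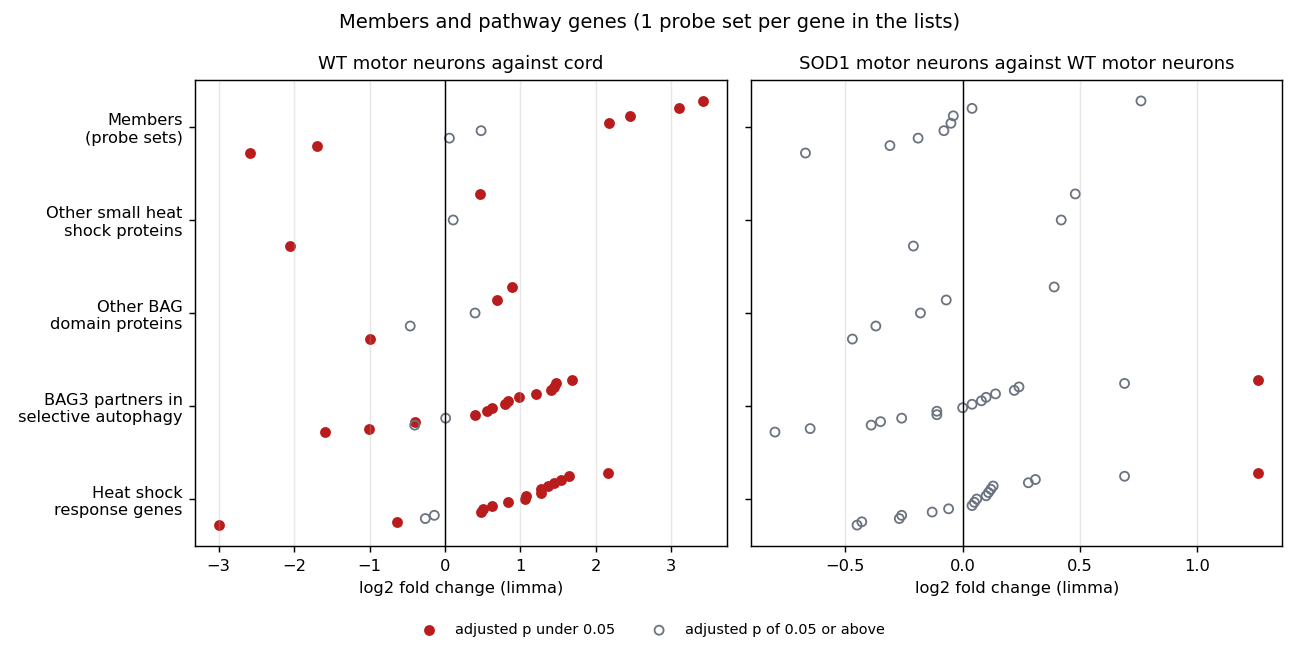
Log2 change from cord to WT motor neurons (left) and from WT to SOD1 motor neurons (right) of the 8 tested member probe sets and of the genes in the 4 chaperone lists, with 1 point per list gene by its brightest probe set; filled points have a limma adjusted p under 0.05. The highest points on the left, at 3.42 and 3.11, are Bag3 and Hspb8 1417013_at, and the filled point on the right, at 1.26, is Hspa1b, which is in both lower lists.

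The genes whose pattern over the 9 arrays came closest to each member were found by the root mean square difference of log2 values after centring each gene, over 12313 genes. Bag3 was nearest to Shh (0.106), Ahnak2 (0.144) and Ccdc28a (0.147), and Hspb8 stood 4th at 0.176. Hspb8 was nearest to Ahnak2 (0.0817), Pcmt1 (0.0954) and Lgals1 (0.106), with Bag3 14th. Hspb1 was nearest to Uck2 (0.103), Dad1 (0.106) and Ap1m1 (0.134). Cryab by 1434369_a_at was nearest to the flat genes Zfp212 (0.082), H2aw (0.0845) and Snx1 (0.0887). By 1416455_a_at, an addition made after the values were seen, it was nearest to Tmem125 (0.161), Sox10 (0.163), a transcription factor of oligodendrocytes, and Tspan2 (0.166), so the 2 probe sets gave different nearest genes. These are descriptions over 9 arrays of 3 groups that share one step between cord and captured cells.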

How the data were processed

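Expression was measured on 9 Affymetrix mouse arrays, 3 each of cord, WT motor neurons and SOD1 motor neurons. The deposited values are signal intensities per probe set on a linear scale. Summarisation, scaling and RNA amplification by the authors are steps not given in the sources used here. Probe sets were named from the platform annotation. Control probe sets (64) and probe sets whose mean over the groups was not above the 40th percentile were left out, leaving 27022 of 45037. Log2 of the signal plus 20.3, the 10th percentile of all values, was fitted for each pair of groups with limma 3.58.1 in R 4.3.3 (intensity trend, Benjamini-Hochberg threshold 0.05). Background on an array was the 95th percentile of 27 bacterial control probe sets. A gene in a list was read by its brightest probe set, the one with the highest mean over the groups. Lists were fixed by role, and from the autophagy and heat shock lists the 3 genes with the largest changes per comparison were named. The members and lists were chosen with earlier results of these data known. On simulated data with 200 changed probe sets of 27022, a log2 change of 2 was recovered in 73% for WT motor neurons against cord, 54% for SOD1 against WT motor neurons and 64% for SOD1 motor neurons against cord, and a change of 1 in 27%, 18% and 24%. In the data 65.5% of probe sets were called for WT and 62.1% for SOD1 motor neurons against cord. The simulated recovery need not hold for those 2 comparisons. The number of arrays limits the precision. Other settings tried were quantile normalization, median centring, filters at the 60th percentile or none, pseudocounts larger and smaller by a factor of 4, a joint fit of the 9 arrays, a fit without the trend, a replicate block, and each array left out in turn.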

Additional observations from a re-analysis of the deposited data

How the results depend on the processing

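Over the alternatives tried, the counts of member probe sets called stayed within 1.5 times of 6 and 7 against cord and at 0 between SOD1 and WT motor neurons. Against cord, Cryab 1434369_a_at turned in WT motor neurons after quantile normalization (-0.47) and without WT motor neuron replicate 2 (-0.05; -0.05 to 0.14 with an array left out), and in SOD1 motor neurons after median centring (0.72). Between SOD1 and WT motor neurons the small differences of Hspb8 1417013_at and Hspb1 changed sign: Hspb8 1417013_at was at -0.03 after quantile normalization, -0.02 after median centring and -0.08 to 0.17 with an array left out, and Hspb1 ranged from -0.23 to 0.19 by 1422943_a_at and from -0.33 to 0.23 by 1425964_x_at. Bag3 stayed between -0.14 and -0.04 over the 15 alternatives. The number of probe sets called in that comparison was 32 after quantile normalization, 20 after median centring, 1184 with all 9 arrays in 1 fit, 3 without the trend, and 6 to 71 with an array left out. Replicate numbers did not pair the samples throughout (correlations of same-numbered deviations from -0.04 to 0.17). SOD1 replicates 1 and 2 correlated best with the WT motor neuron array of their own number (0.15 and 0.17), and SOD1 replicate 3 did not. Whether the numbers mark pairs or a batch is not given in the labels. With a replicate block, 443 probe sets were called between SOD1 and WT motor neurons, against 60 without it. Against cord the block gave 17333 in WT and 16325 in SOD1 motor neurons. The number of members called did not change. Among list genes near 0, Bag2 reached 0.21 and 0.44 in WT and 0.60 and 0.77 in SOD1 motor neurons after quantile normalization and median centring, Bag5 0.13 and 0.78 and Hspb7 0.51 and 0.75 in SOD1 motor neurons. With an array left out, Hspb7 ranged from -0.15 to 0.34 in WT and from -0.36 to 0.12 in SOD1 motor neurons, and there Bag2 ranged from -0.17 to 0.04 and Bag5 from -0.24 to 0.20. The cause was not tested. The number of arrays per group limits what can be seen: exact tests cannot go below 0.1, and dim probe sets such as Cryab 1435837_at gave no test.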
